A study of Mus musculus with 10 samples.

Results

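The genes described here are 9 components, receptors and regulators of complement, out of 55453 genes in the count table: *C1qa*, *C1qb*, *C1qc*, *C3*, *C4b*, *C3ar1*, *C5ar1*, *Cfp* and *Serping1*. They were taken by symbol, and 8 of the 9 passed the filter on low counts, with *Serping1* left out. RNA came from hippocampal microglia, sorted as CD45int CD11b+ cells, of 3xTg AD mice, which were female retired breeders over 15 months of age and had been treated for about 8 weeks. The PBS group (n = 5 libraries) received phosphate-buffered saline. The GA group (n = 5) received 0.1 mg per injection of glatiramer acetate, a synthetic peptide copolymer given as a drug for multiple sclerosis. By the paper, injections were weekly, with an extra injection in the first week. All 10 libraries share the genotype, which is homozygous for human transgenes that include *APP* with the Swedish mutation and *MAPT* with P301L, under the Thy1.2 promoter, used to drive expression in neurons, and non-transgenic microglia were not analysed here. The comparison asked whether the treatment changed the microglial level of these genes. The labels do not say whether each library came from a separate mouse, so that *P* values measure the spread between these libraries, which may be technical in part.

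Complement is a cascade of plasma and tissue proteins that tags targets for uptake or lysis. In the classical pathway C1q, built of A, B and C chains, binds a surface and its proteases cleave C4 and C2. The convertase made of their fragments then cleaves C3, the point where the classical, lectin and alternative pathways meet. Small fragments of C3 and C5, the anaphylatoxins, signal through the receptors C3aR1 and C5aR1. Properdin, the product of *Cfp*, stabilizes the alternative pathway convertase, and C1 inhibitor, the product of *Serping1*, blocks the C1 proteases. In the brain, microglia are the main source of C1q, and C1q and C3 are known for tagging synapses for removal.

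Total counts ranged from 32332185 to 38764643 per library. Values are CPM, counts scaled to the same library total and corrected by factors of the trimmed mean of M values (TMM). The 10 microglial marker genes were all expressed, from *Sall1* at 631 to 786 CPM to *Csf1r* at 15418 to 18841 CPM, while of the astrocyte markers *Gfap* and *Aqp4* stayed at or below 4.74 and 0.463 CPM and *Slc1a3* was at 243 to 349 CPM. Of the oligodendrocyte markers *Cnp* was at 91.8 to 122.9 CPM, *Mbp* at 40.9 to 61.5 CPM and *Mag* at 28.8 to 42.9 CPM, with *Mog* at or below 0.318 CPM. Neutrophil markers summed to 38.0 to 447.8 CPM in the PBS group and 11.03 to 170.3 CPM in the GA group, and all 11 were counted in some library. Every library title begins with a prefix, 388 for the 5 PBS libraries, 394 for GA libraries 394_1 and 394_2, and 400 for GA libraries 400_1, 400_2 and 400_3. What the prefix stands for is not given, and a difference between prefixes 388 and 400 or 394 cannot be told apart from one between treatments. In bulk samples such as these, fewer cells of a type and less RNA per cell cannot be told apart.

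By the GENCODE M21 annotation of GRCm38, the C1q genes lie side by side on the minus strand of chromosome 4, *C1qb* at chr4:136880129-136886187, *C1qc* at chr4:136889804-136893065 and *C1qa* at chr4:136895917-136898803, each with 3 merged exons. Their levels were among the highest of the transcriptome, and for this reason the bases before the start of *C1qb* and *C1qc* are printed here from the RefSeq promoter table (GRCm38.p6, minus strand, 5′ to 3′). The windows are chr4:136886201-136886450 for *C1qb* and chr4:136893066-136893164 for *C1qc*, where 151 bases that GENCODE places inside the gene were left out. Capitals mark GAGGAA, the core letters of sites for PU.1, the myeloid transcription factor, or their reverse complement.
C1qb: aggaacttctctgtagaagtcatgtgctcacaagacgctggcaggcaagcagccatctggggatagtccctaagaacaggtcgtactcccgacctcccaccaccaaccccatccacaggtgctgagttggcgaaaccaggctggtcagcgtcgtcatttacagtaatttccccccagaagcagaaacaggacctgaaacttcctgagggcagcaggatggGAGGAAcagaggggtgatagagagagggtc
C1qc: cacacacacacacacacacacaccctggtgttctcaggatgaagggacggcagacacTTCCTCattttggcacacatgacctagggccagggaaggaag
The match in *C1qb* begins 30 bases before the RefSeq start and that in *C1qc* 193 bases before it. A RefSeq promoter entry existed for 6 of the 9 genes, *C1qb*, *C1qc*, *C3*, *C3ar1*, *C5ar1* and *Cfp*, and GAGGAA was present on either strand in the 250 upstream bases of 2 of them, against 23.3% of 32851 promoters. Other letters were searched the same way, on both strands. The 250 bases are counted from the RefSeq start and for *C1qc*, *C3ar1* and *C5ar1* include bases that GENCODE places inside the gene. CCAAT, the CCAAT box, was found only for *C5ar1* among the 6, in bases inside its GENCODE gene (33.85% of all promoters). TTGCNNAA, half-sites of C/EBP factors, was found only before *C3* (9.56%). The kappaB motif was found before *C3* and *C3ar1* and, inside the GENCODE gene, for *C1qc* (14.9%), and a pair of interferon regulatory factor half-sites before none (2.98%). No match of one motif overlapped a match of another in these 6 windows. A match is a description of letters and was not tested as a binding site.

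The C1q genes were expressed at 3107 CPM or more in every library, and no difference between treatments passed the test. Together they took 1.503% to 1.68% of all counts, 1.58% ± 0.092 (SD, n = 5) in the PBS group and 1.59% ± 0.032 (SD, n = 5) in the GA group. By level in CPM, *C1qb* ranked 7, *C1qc* 14 and *C1qa* 22 of 14481 genes tested.

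*C1qb*, which encodes the B chain, was at 6233, 6338, 6401, 7777 and 7513 CPM in PBS libraries 388_1 to 388_5. In GA libraries 394_1, 394_2, 400_1, 400_2 and 400_3 it was at 6890, 7106, 7057, 6934 and 6748 CPM. Libraries 388_4 and 388_5 were the highest of all and 388_1 to 388_3 the lowest, so that the GA libraries lay inside the PBS range. The log2 fold change of GA against PBS was 0.02 (95% interval -0.12 to 0.16, SE 0.066, adjusted *P* = 0.978, edgeR).

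*C1qa*, the gene of the A chain, was at 3107, 3172, 3250, 3508 and 3964 CPM in the PBS libraries in the same order, and at 3198, 3489, 3657, 3499 and 3431 CPM in the GA libraries. Library 388_5 was highest and 388_1 lowest, with the GA libraries between them. Its log2 fold change was 0.02 (95% interval -0.12 to 0.17, adjusted *P* = 0.976, edgeR). *C1qc*, the gene of the C chain, was at 5539, 5350, 5194, 5473 and 6164 CPM in the PBS libraries and at 5552, 5662, 5429, 5434 and 5386 CPM in the GA libraries. All GA libraries lay within the PBS range, and the log2 fold change was -0.01 (95% interval -0.13 to 0.10, adjusted *P* = 0.981, edgeR). The intervals of the C1q genes reached no further than -0.13 and 0.17 on the log2 scale.

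The C1q genes were also among the steadier genes of the data. The coefficient of variation over 10 libraries was 4.71% for *C1qc*, 7.24% for *C1qb* and 7.59% for *C1qa*, and 1.28%, 10.2% and 12.3% of the genes tested had a lower one. The GA libraries were closer together than the PBS libraries, with SDs of 142 and 732 CPM for *C1qb*, 113 and 371 CPM for *C1qc*, and 166.5 and 350 CPM for *C1qa*. Whether the spreads differ was not tested.

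Compared per kilobase of merged exon, *C1qb* was 1.81 to 2.12 times *C1qa* in each library, with a mean ratio of 1.93 ± 0.11 (SD, n = 5) under PBS and 1.93 ± 0.084 (SD, n = 5) under GA. The order of *C1qa* and *C1qc* depended on the length used. With the merged exons of *C1qc* (1931 bases), which include those of a non-coding transcript, *C1qc* was 0.800 to 0.960 times *C1qa* and below it in 10 of 10 libraries. With the longest transcript (1203 bases) it averaged 4587 CPM per kilobase against 3296 for *C1qa*, and was above it in 10 of 10.

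**Figure D1:**
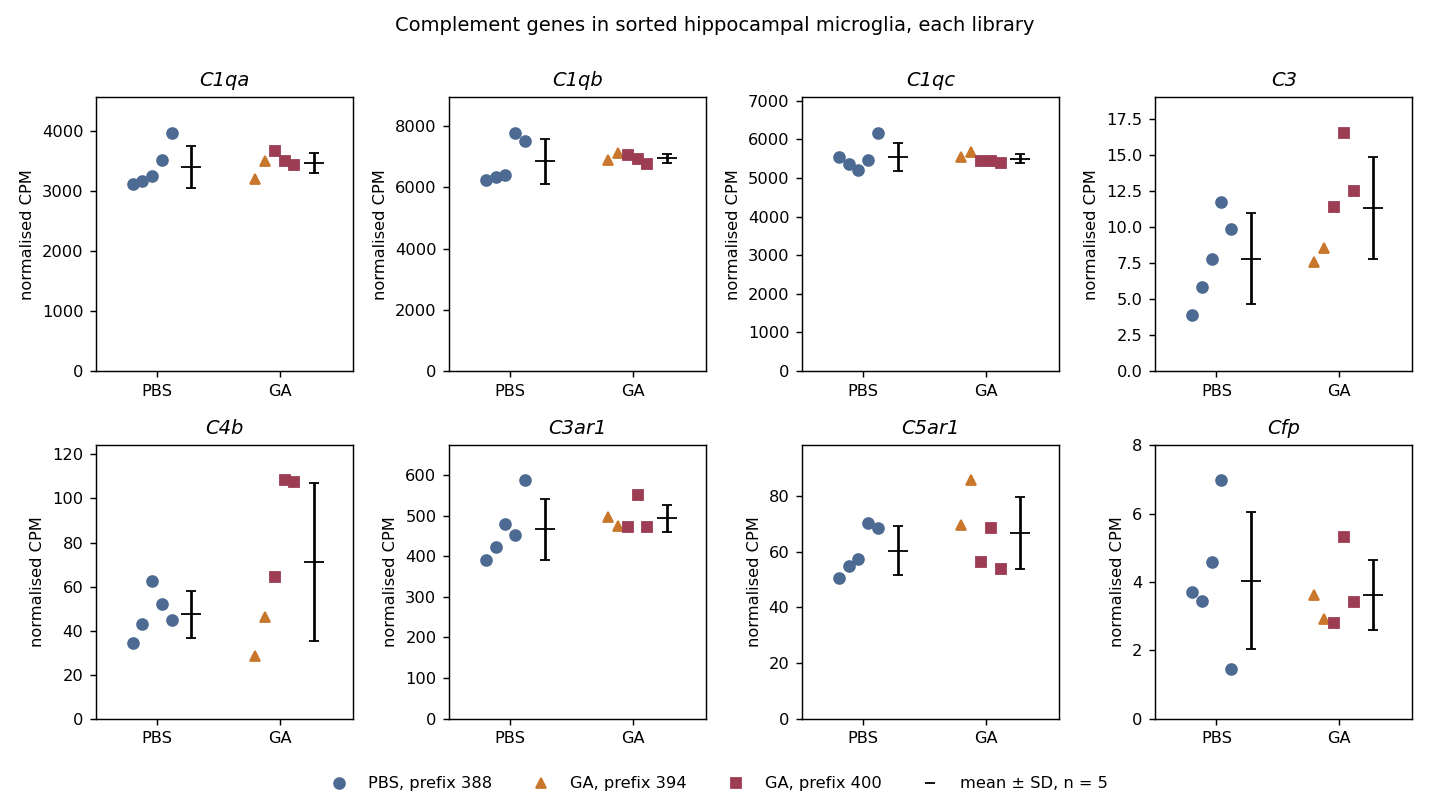
Level of each expressed complement gene in TMM-scaled CPM (y axis, from 0) in the 5 PBS and 5 GA libraries. Each point is a library, shaped by title prefix, and bars give the mean ± SD. The groups overlap in every panel, and in the *C4b* panel the 3 libraries of prefix 400 lie above all others, at 64.3 to 108.2 CPM.

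*C3* and *C4b* had the highest log2 fold changes of the 8 tested genes, without passing the test. Both encode thioester proteins on chromosome 17, *C4b* at chr17:34728380-34743882 with 40 merged exons and *C3* at chr17:57203970-57228136 with 42 merged exons, on the minus strand. An internal thioester lets the activated fragment bond to a target surface, and the codons of this site are printed because they are the part that the pair shares in function. They were read from the GENCODE M21 transcripts, in exon 24 of each, at chr17:57215826-57215873 for *C3* and chr17:34734463-34734510 for *C4b*, with the thioester codons in capitals.
C3: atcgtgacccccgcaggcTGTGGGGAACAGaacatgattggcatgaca
C4b: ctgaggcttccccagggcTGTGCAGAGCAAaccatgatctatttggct
The sequences differ at 22 of 48 bases, 4 of them in the capitals. No stretch of 100 bases, the length of the reads, was shared between *C3* and any other gene's transcript. Of the 100-base windows of the longest *C4b* transcript, 16.5% also occurred in transcripts of *C4a*, a near-identical gene on the same chromosome, so that such reads could be split or dropped. *C4a* itself was counted 74 times over the 10 libraries, against 956 to 4176 counts of *C4b* in each library.

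*C4b*, which supplies the C4 cleaved by C1, was at 34.2, 42.8, 62.7, 52.1 and 44.7 CPM in PBS libraries 388_1 to 388_5. It was at 28.7 and 46.3 CPM in GA libraries 394_1 and 394_2, and at 64.3, 108.2 and 107.4 CPM in 400_1, 400_2 and 400_3. The lowest value and the 3 highest were in GA libraries, so that the GA group reached beyond the PBS group on either side. Means were 47.3 ± 10.7 CPM under PBS and 71.0 ± 35.9 CPM under GA (SD, n = 5 each), a log2 fold change of 0.59 (SE 0.29, 95% interval -0.04 to 1.22, unadjusted *P* = 0.0657, adjusted *P* = 0.875, edgeR). The two-sided exact permutation test over 252 arrangements of the libraries gave *P* = 0.294, where 0.00794 is the smallest value it allows.

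*C3*, the central component, was low, at 148 to 632 counts per library. It was at 3.87, 5.83, 7.79, 11.8 and 9.86 CPM in the PBS libraries in order, at 7.58 and 8.53 CPM in 394_1 and 394_2, and at 11.4, 16.6 and 12.6 CPM in 400_1, 400_2 and 400_3. Libraries 400_2 and 400_3 were the highest, followed by 388_4 of the PBS group, and 388_1 and 388_2 the lowest. Means were 7.82 ± 3.14 CPM under PBS and 11.3 ± 3.56 CPM under GA (SD, n = 5 each), with a log2 fold change of 0.54 (SE 0.28, 95% interval -0.06 to 1.13, unadjusted *P* = 0.0725, adjusted *P* = 0.884, edgeR). The exact permutation test gave *P* = 0.143. Leaving out 1 library at a time moved the log2 fold change of *C3* between 0.36, without 388_1, and 0.73, without 388_4, and that of *C4b* between 0.39, without 400_2, and 0.79, without 394_1.

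The anaphylatoxin receptors were expressed in every library, *C3ar1* at 391 to 587 CPM and *C5ar1* at 50.7 to 85.7 CPM, and neither passed the test. *C3ar1* (chr6:122847138-122856161, minus strand), the receptor of the C3 fragment, was at 391, 423, 479, 453 and 587 CPM in the PBS libraries and at 497, 474, 473, 550 and 473 CPM in the GA libraries. The GA libraries lay within the PBS range, and 5 of 5 were above the PBS median of 453 CPM. The log2 fold change was 0.08 (95% interval -0.12 to 0.28, adjusted *P* = 0.949, edgeR). With 1 library left out it ran from 0.024, without 388_1, to 0.18, without 388_5, the highest, with adjusted *P* values from 0.611 to 0.998.

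*C5ar1* (chr7:16246743-16259540, minus strand), the receptor of the C5 fragment, was at 50.7, 55.0, 57.4, 70.4 and 68.6 CPM in the PBS libraries. In the GA libraries it was at 69.5 and 85.7 CPM under prefix 394 and at 56.2, 68.7 and 53.6 CPM under prefix 400. Only 394_2 exceeded every PBS library. The log2 fold change was 0.14 (95% interval -0.13 to 0.42, adjusted *P* = 0.932, edgeR), and 0.04 without 394_2. Per kilobase, *C3ar1* was 3.31 to 5.26 times *C5ar1* in each library.

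*Cfp* (chrX:20925454-20931555, minus strand), the gene of properdin, was counted only 51 to 225 times per library. Its CPM values were 3.72, 3.44, 4.58, 6.97 and 1.45 in the PBS libraries and 3.63, 2.92, 2.80, 5.32 and 3.42 in the GA libraries. Both the highest library, 388_4, and the lowest, 388_5, were in the PBS group. The log2 fold change was -0.15 (95% interval -0.86 to 0.56, adjusted *P* = 0.972, edgeR), and its sign turned to 0.14 without 388_4.

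*Serping1* (chr2:84765387-84775444, minus strand), the gene of C1 inhibitor, had 0 counts in all 10 libraries. With 3 counts as the limit that a count of 0 allows, its level could be up to 0.0772 to 0.0930 CPM per library, for counting error alone. It could not be tested between treatments.

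None of the 8 genes passed an adjusted *P* of 0.05 in the main fit, and there none had an unadjusted *P* under 0.05. In the same edgeR fit 0 of 14481 genes (0%) passed the adjusted threshold, and 833 (5.75%) had an unadjusted *P* under 0.05. In 0.891% of genes tested every library of one group lay above every library of the other, and this held for none of the 8 genes. limma-voom also called 0 genes, and DESeq2 called 2, *Gm1070* and *Dcstamp*. Of the 8 genes 6 had a higher mean estimate under GA, where 50.1% of all genes tested did. Their median log2 fold change was 0.05, against 0.00020 for all genes tested. Over 18 alternative fits per gene the lowest adjusted *P* was 0.353, for *C4b* with the prefix 400 libraries alone. Some of these fits gave an unadjusted *P* under 0.05. Among them were *C3* at 0.047 with limma-voom, and *C3* at 0.036 and *C4b* at 0.023 with edgeR without the filter. With 1 library left out this held in 2 of 10 edgeR fits for *C3*, 3 of 10 for *C4b* and 1 of 10 for *C3ar1*.

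**Figure D2:**
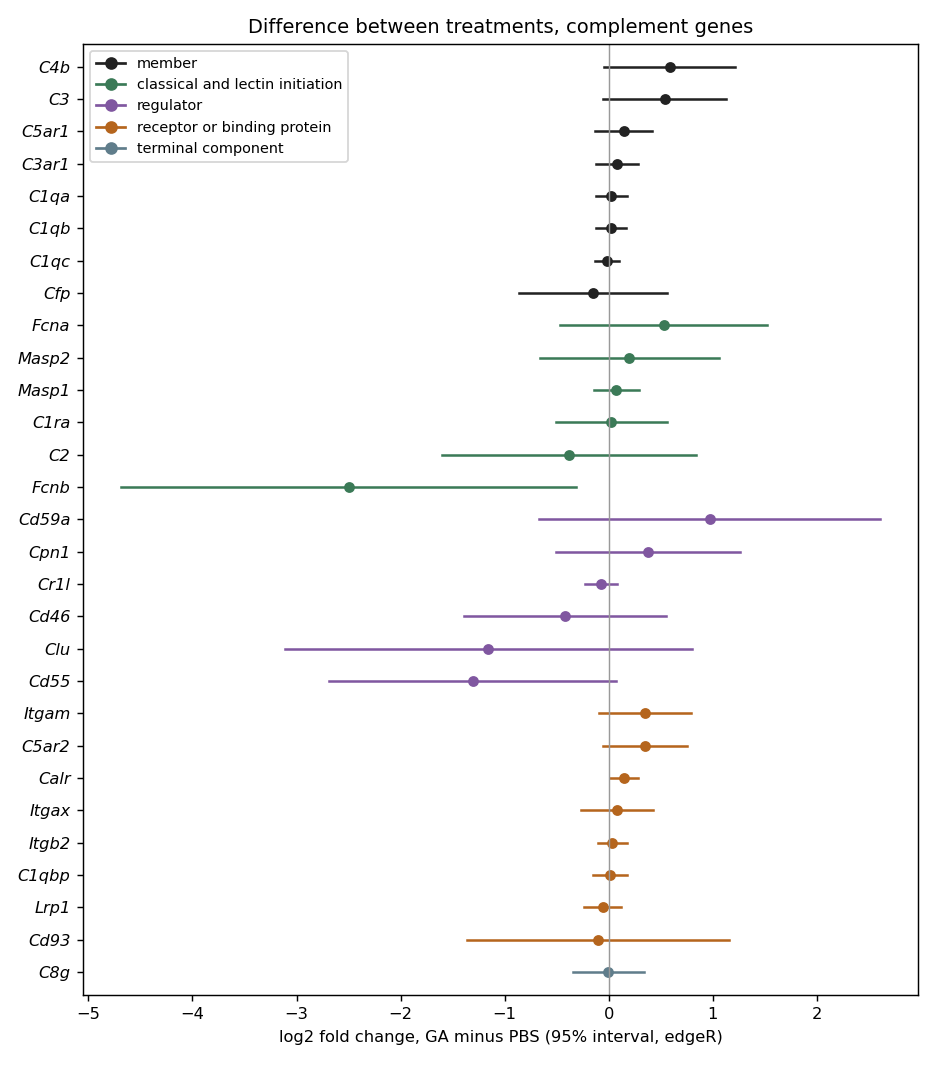
Log2 fold change of GA against PBS (x axis) with its 95% interval from edgeR for the 8 complement genes above and 21 of the 22 genes of the pathway lists that were tested, coloured by role. The intervals of the C1q genes lie between -0.13 and 0.17, and only the intervals of *Calr* and *Fcnb* leave out 0, with neither passing after adjustment.

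Within the GA group, the differences between title prefixes were larger for *C4b*, *C3* and *C5ar1* than for the other 5 genes tested, by estimate. Libraries of prefix 400 were higher than those of prefix 394 by 1.32 for *C4b* on the log2 scale (SE 0.26, 95% interval 0.73 to 1.91, unadjusted *P* = 0.00076, adjusted *P* = 0.188, edgeR). For *C3* the difference was 0.75 (SE 0.19, 95% interval 0.31 to 1.19, unadjusted *P* = 0.0043, adjusted *P* = 0.272, edgeR). For *C5ar1*, lower under prefix 400, it was -0.38 (SE 0.13, 95% interval -0.67 to -0.089, unadjusted *P* = 0.016, adjusted *P* = 0.359, edgeR). The other 5 genes ranged from -0.05 for *C1qc* to 0.24 for *Cfp*. None of the 8 passed after adjustment, and 3 of 8 had an unadjusted *P* under 0.05, where 10.1% of all 15076 genes tested did.

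Set against the 5 PBS libraries, the GA libraries of each prefix gave the following estimates for these genes. For *C4b* the log2 fold change was -0.33 (SE 0.23) with prefix 394 alone and 0.99 (SE 0.19) with prefix 400 alone, where its unadjusted *P* was 0.00028 and its adjusted *P* 0.353 (edgeR). For *C3* it was 0.05 (SE 0.35) and 0.80 (SE 0.29). For *C5ar1* it was 0.37 with prefix 394 and -0.016 with prefix 400.

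**Figure D3:**
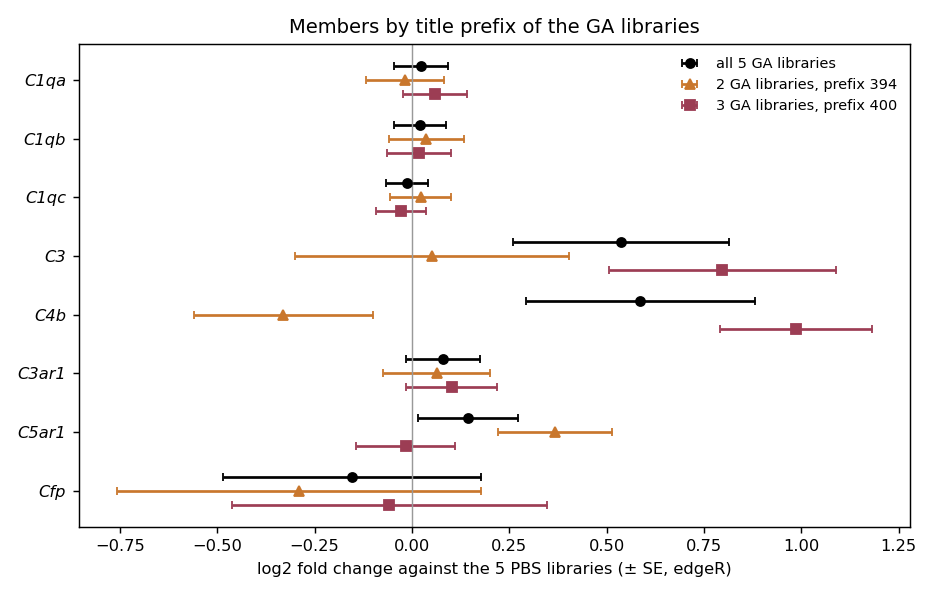
Log2 fold change against the 5 PBS libraries (x axis, ± SE, edgeR) for the 8 genes, with all 5 GA libraries, the 2 of prefix 394 or the 3 of prefix 400. *C4b* lies at -0.33 with prefix 394 and 0.99 with prefix 400, while the C1q genes stay within 0.06 of 0 in each fit.

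The rest of the pathway was described by 50 genes in lists by role, of which 22 were tested, 16 had 0 counts in every library and the others were below the filter. None of the 22 passed an adjusted *P* of 0.05. Of them 13 were higher and 9 lower in mean estimate under GA, where 50.1% of all genes tested were higher. Their median log2 fold change was 0.03. Of the 22, 2 had an unadjusted *P* under 0.05, where 5.75% of all genes tested did. These were *Calr*, calreticulin, a binding partner of C1q, at 0.15 (unadjusted *P* = 0.030, adjusted *P* = 0.854, edgeR), and *Fcnb*, a ficolin of the lectin pathway and of neutrophils, at -2.50 (unadjusted *P* = 0.028, adjusted *P* = 0.854, edgeR). *Fcnb* had 0 to 53 counts per library. Neutrophil markers were also higher in several PBS libraries, as given above, and their part in the *Fcnb* value was not tested.

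Of 14 initiators of the classical and lectin pathways, 6 were tested and 5 were at 0. *C1ra*, a protease that partners C1q, was at 3.02 ± 0.40 CPM under PBS and 3.07 ± 0.95 CPM under GA (SD, n = 5 each), while its partner *C1s1* was at 0 in every library. *Masp1*, a protease of the lectin pathway, was at 66.2 ± 4.4 and 69.6 ± 10.5 CPM, and the lectins *Mbl1* and *Mbl2* were at 0. *C2*, the protease of the classical convertase, was near the filter at 0.489 and 0.372 CPM. Of the alternative pathway, *Cfd* was at 0 and *Cfb* had 0 to 8 counts per library.

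Of 7 terminal components that form the lytic pore, *C8g* alone was tested, at 7.28 and 7.26 CPM, and 5 were at 0, among them *Hc*, the gene of C5. Of 17 regulators, 7 were tested. *Cr1l*, a membrane regulator, was at 102.5 and 97.1 CPM. *Cfi*, a protease that inactivates C3b and C4b, was at 0.

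Of 10 receptors and binding proteins 8 were tested. *Itgam* and *Itgb2*, whose products form complement receptor 3 and of which *Itgam* encodes the sorted antigen CD11b, were at 188 and 1016 CPM under PBS and at 239 and 1042 CPM under GA. Their log2 fold changes were 0.35 (adjusted *P* = 0.895) and 0.04 (adjusted *P* = 0.970, edgeR). Without 388_4, at 88.7 CPM, that of *Itgam* was 0.17 (adjusted *P* = 0.998, edgeR). *C5ar2*, the second C5a receptor, was at 8.80 and 11.2 CPM, with a log2 fold change of 0.35 (unadjusted *P* = 0.087, adjusted *P* = 0.894, edgeR). *Vsig4*, a C3 fragment receptor of other macrophages, had 0 to 6 counts per library. Between the prefixes of the GA group, 5 of 24 pathway genes tested had an unadjusted *P* under 0.05 by edgeR, all higher under prefix 400, where 10.1% of all genes tested had one in either direction. They were *Itgam* at 0.39, *Itgax* at 0.44, *Masp1* at 0.35, *Cd93* at 2.04 and *Clu* at 3.45 on the log2 scale, the last from 0 to 34 counts per GA library.

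**Figure D4:**
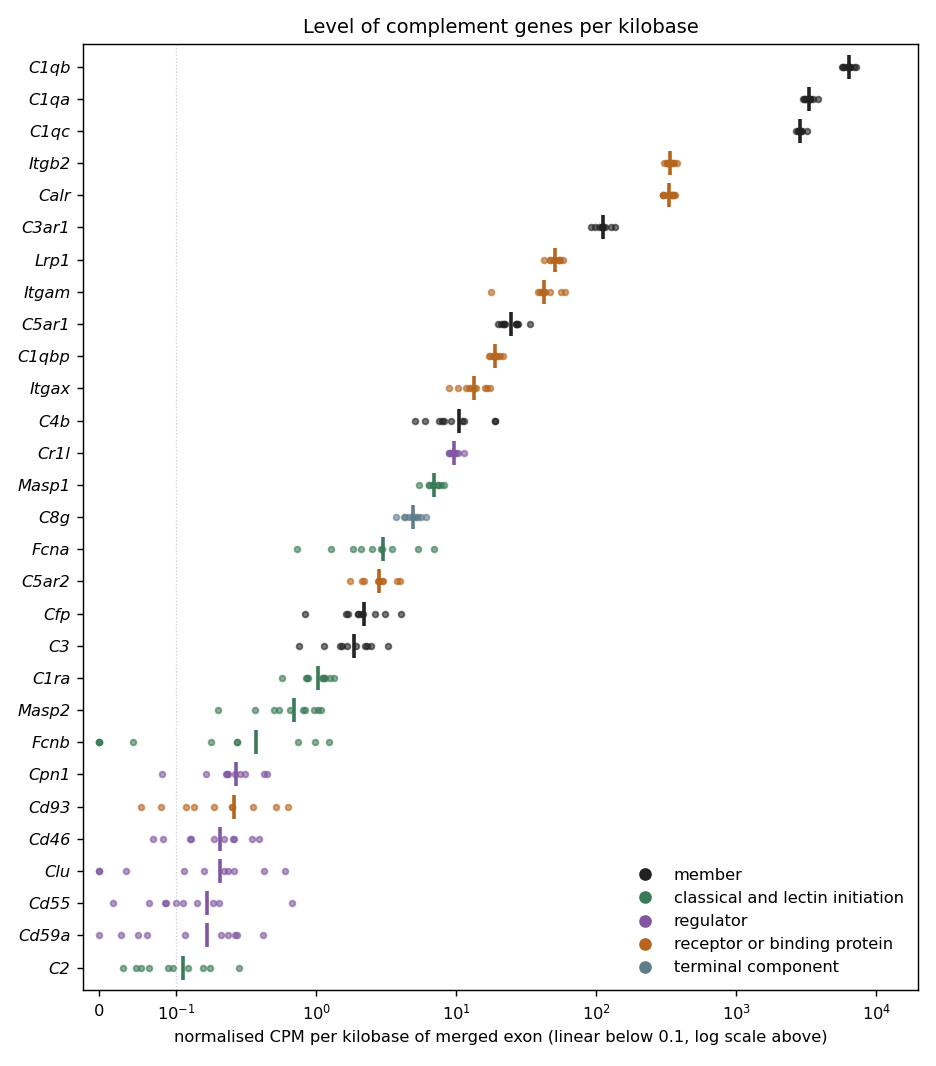
Level per kilobase of merged exon (x axis, TMM-scaled CPM per kilobase, linear below 0.1 and on a log scale above) of complement genes that passed the filter (8 described above and 21 of the pathway lists), ordered by mean, with a point for each of 10 libraries and a bar at the mean. The C1q genes lie above all others, at 2690 to 7148, and *C3* and *Cfp* lie at 0.753 to 4.02.

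Ordered by mean CPM per kilobase of merged exon over 10 libraries (± SD), *C1qb* was at 6342 ± 459, *C1qa* at 3296 ± 250, *C1qc* at 2858 ± 135, *C3ar1* at 112 ± 13, *C5ar1* at 24.7 ± 4.2, *C4b* at 10.4 ± 4.9, *Cfp* at 2.20 ± 0.87 and *C3* at 1.86 ± 0.71. The ranges over libraries of most neighbours in this order did not overlap. The exceptions were *C1qa* with *C1qc*, whose order turned with the length as given above, and *Cfp* with *C3*, where *Cfp* was higher in 6 of 10 libraries. *C4b* was 3.41 to 7.97 times *C3* per kilobase in each library.

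Across libraries, 21 of the 28 pairs of expressed genes varied in the same direction on the log2 scale of CPM with a pseudocount of 0.1 CPM. The pairs share genes and are not independent, and no share over pairs of all genes is given beside this count. Pairs with *Serping1* had no variation to compare. By Pearson's *r* none of the 28 pairs had an adjusted permutation *P* under 0.05, and 9 had an unadjusted one. By Spearman's rho 2 pairs did, *C1qa* with *C1qb* and *C3* with *C4b*, both with an adjusted *P* of 0.0435. For *C1qa* with *C1qb*, *r* was 0.79 (permutation *P* = 0.00693, adjusted *P* = 0.146) and rho 0.88 (permutation *P* = 0.00178), and *r* was 0.67 without 388_1 and 388_5, the libraries farthest from the median of *C1qa*.

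For *C3* with *C4b*, *r* was 0.76 (permutation *P* = 0.0115, adjusted *P* = 0.146) and rho 0.85 (permutation *P* = 0.00311), and *r* was 0.62 without 388_1 and 400_2. With each treatment group centred on its own mean *r* was 0.78 for *C1qa* with *C1qb* (exact permutation *P* = 0.0444, adjusted *P* = 0.328) and 0.71 for *C3* with *C4b* (exact permutation *P* = 0.00799, adjusted *P* = 0.129), and no centred pair passed the adjusted threshold. Centring on treatment leaves in the difference between title prefixes within the GA group, given above for both *C3* and *C4b*. No prefix held 6 libraries, and no correlation is given over fewer. Between *C1qc* and *C3* no correlation was detected (*r* = 0.019, rho = -0.067, permutation *P* = 0.956 and 0.865).

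The genes with a mean of at least 10 CPM whose pattern over the 10 libraries was most like that of *C1qa* were *Tpp1* (*r* = 0.96), *Abcg2* (*r* = 0.94) and *Grn* (*r* = 0.93), out of 8691 genes. For *C3* they were *Pla2g12a* (*r* = 0.95), *Pkm* (*r* = 0.93) and *Cst7* (*r* = 0.92), a gene of the disease-associated microglia list, out of 8692. *C1qb* came 133rd in likeness to *C1qa*, and *C4b* 89th in likeness to *C3*. Each is the highest of many values over 10 points and are given as a description.

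As a check on other cells and states, *Cfp*, *C4b*, *C3* and *C5ar1* were set beside 10 summed marker lists, 40 relations chosen after the values were seen. The adjustment covers these 40 and not that choice. The C1q genes and *C3ar1* were not set beside the lists, so that a relation given here may not be particular to its gene. By Pearson's *r* 2 of 40 had an adjusted permutation *P* under 0.05, and by Spearman's rho 0 of 40. The first was *C3* with 14 genes of disease-associated microglia, whose sum ran from 18948 CPM in 388_1 to 27263 CPM in 400_2. The most abundant genes of this list were *Ctsd*, at 9197 to 12587 CPM, and *Apoe*, at 4505 to 8215 CPM. Here *r* was 0.89 (permutation *P* = 0.00062, adjusted *P* = 0.0248) and rho 0.70 (permutation *P* = 0.0313, adjusted *P* = 0.251). Without these end libraries *r* was 0.67 with an exact permutation *P* of 0.0711. They were the lowest and the highest library in both the sum and *C3*, and leaving out both ends of a range can by itself lower *r*. Leaving out 1 library at a time kept the adjusted *P* under 0.05 in 4 of 10 cases. In the PBS libraries *C1qa* rose in the order of the disease-associated microglia sum, and in the GA libraries it did not.

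The other was *Cfp* with the 10 microglial markers, at *r* = -0.85 (permutation *P* = 0.00226, adjusted *P* = 0.0452) and rho = -0.68 (permutation *P* = 0.0354, adjusted *P* = 0.251). It was -0.52 without 388_5 and 400_1 (exact permutation *P* = 0.185), and the adjusted *P* stayed under 0.05 in 2 of 10 cases with 1 library left out. The 8 border macrophage markers, such as *Mrc1* and *F13a1*, summed to 49.99 to 257.2 CPM in the PBS group and 49.6 to 196.3 CPM in the GA group, and none was at 0 in every library. Their sum was highest in 388_4, 400_2 and 388_3, in the same order as *Cfp*, and *r* with *Cfp* was 0.75 (permutation *P* = 0.0105, adjusted *P* = 0.105) and rho 0.59 (permutation *P* = 0.0808). It was 0.47 without 388_4 and 400_2. The part of border macrophages in the *Cfp* counts was not tested.

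Vascular markers (7 genes, of which *Cldn5* stayed at or below 0.244 CPM and *Pecam1* was the most abundant) had sums of 38.3 to 54.4 CPM in PBS libraries and 36.7 to 51.8 CPM in GA libraries. Their sum had *r* = 0.74 and rho 0.76 with *C4b* (permutation *P* = 0.0141 and 0.0153, adjusted *P* = 0.113 and 0.251). Without 388_4 and 394_1 *r* was 0.83 (exact permutation *P* = 0.0109, not adjusted). With the border macrophage sum *C4b* had *r* = 0.55 and rho 0.77 (permutation *P* = 0.0971 and 0.0129, adjusted *P* = 0.536 and 0.251). The part of either cell type in the *C4b* values was not tested. Of the astrocyte markers, a cell type known to express *C3* and *C4b*, 3 of 8 reached a median of 1 CPM. The sum of all 8 was 247.6 to 305.9 CPM in the PBS libraries, 251.7 to 274.4 CPM under prefix 400, and 326 and 355 CPM under prefix 394. Nearly all of that sum was *Slc1a3*. *Gfap* was at 1.20 and 2.72 CPM under prefix 394 and at 2.92, 3.85 and 1.34 CPM under prefix 400. The astrocyte sum had *r* = 0.78 and rho 0.72 with *C5ar1* (permutation *P* = 0.00758 and 0.0228, adjusted *P* = 0.101 and 0.251), and *r* was 0.51 without 394_1 and 394_2. With *C4b* *r* was -0.47 and with *C3* 0.018 (rho -0.37 and -0.042, permutation *P* = 0.164 and 0.960 for *r*). The part of astrocytes in these values was not tested.

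**Figure D5:**
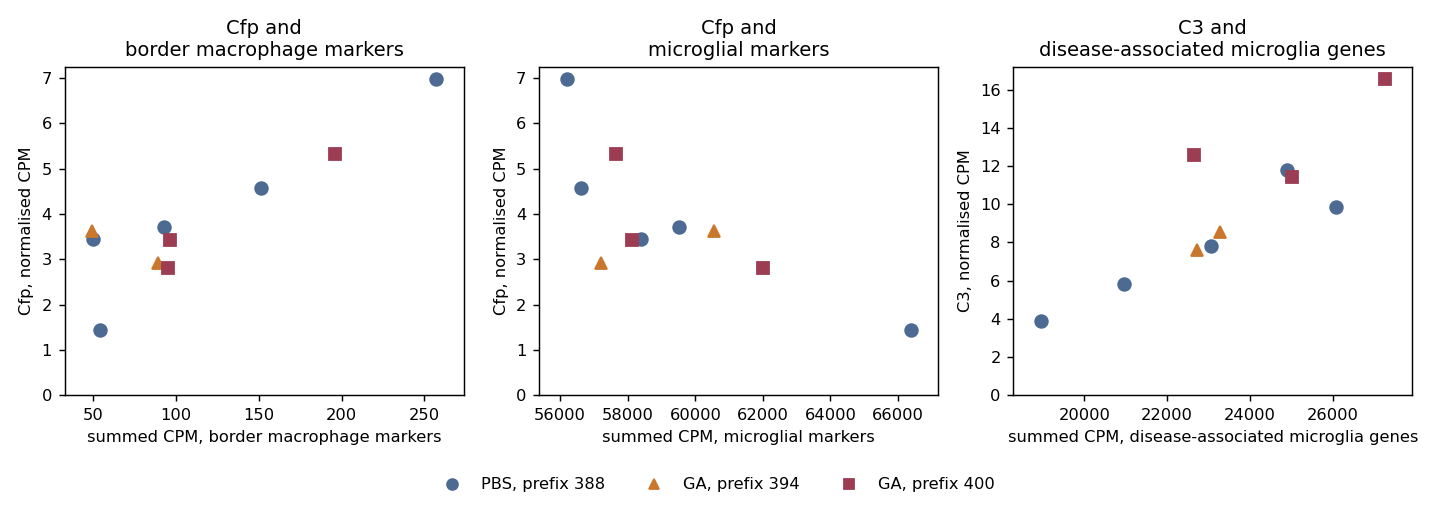
Level of *Cfp* or *C3* (y axis, TMM-scaled CPM, from 0) against the summed CPM of a marker list (x axis) in each of 10 libraries, shaped by title prefix. *Cfp* is highest in the libraries with the highest border macrophage sums, 257 CPM in 388_4 and 196 CPM in 400_2, and *C3* is lowest in 388_1, where the disease-associated microglia sum is also lowest.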

How the data were processed

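The authors deposited raw counts of reads per gene symbol, whole numbers without normalization, from single-end reads of 100 nt of SMARTer-amplified total RNA. The submitters' processing notes name fastp 0.20.0, STAR 2.7.0f, Subread 1.6.4 with featureCounts, DESeq2 and GRCm38.p6. The annotation and the strand setting are not given in the sources used here, so that reads of overlapping genes may not be told apart (*Mir6978* lies inside *C3*). Treatments came from the sample labels, and all 10 count columns were used.

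Counts were filtered (filterByExpr, minimum count 10), scaled by TMM and fitted with edgeR 4.0.16 (quasi-likelihood F-test, treatment alone, R 4.3.3), with Benjamini-Hochberg adjustment over all genes tested and a threshold of 0.05. Alternatives were DESeq2 1.42.0, limma-voom (limma 3.58.1), DESeq2 size factors, other filters, a robust fit, each library left out, and the GA libraries of 1 prefix alone. Single genes and correlations were compared by permutation of log2(CPM + 0.1), two-sided, exact or with 100000 resamples, and single genes again with 1 CPM added. Fits and permutation tests were also tested on simulated data. Scripts used Python 3.11.15, numpy 2.4.6, scipy 1.17.1 and matplotlib 3.10.9. Exon lengths came from GENCODE M21 for 14348 of 14481 genes tested.

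All 9 genes, genes of the complement lists and the 3 genes most like *C1qa* and *C3* were named. Values of 1 pathway gene are not reported here. The genes and lists were chosen with earlier results of these data known. Reads were amplified and carry no molecular identifiers, so that limits from counts cover counting error only.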

Additional observations from a re-analysis of the deposited data

Results flagged for a closer look

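In 90 groups of 5 libraries, 4 held a library far from the others by Dixon's criterion, which chance meets in about 1 of 20 groups. *Itgam* was at 88.7 CPM in 388_4 and at 191 to 233 CPM in the other PBS libraries. *Calr* was at 1049 CPM in 388_5 and at 860 to 901 CPM in the others. *Cd55* was at 3.22 CPM in 388_4 and at 0.312 to 0.977 CPM in the others. *Cd59a* was at 0.747 CPM in 388_2 and at 0 to 0.113 CPM in the others. Without these libraries the log2 fold change of GA against PBS went from 0.35 to 0.17 for *Itgam*, from 0.15 to 0.21 for *Calr*, from -1.31 to -0.44 for *Cd55* and from 0.97 to 2.55 for *Cd59a*, with adjusted *P* values from 0.533 to 0.998 (edgeR, chosen after the values were seen). None of the 9 complement genes described first held such a library. Differences between title prefixes 400 and 394 within the GA group had an unadjusted *P* under 0.05 for *C4b* at 1.32, *C3* at 0.75 and *C5ar1* at -0.38 on the log2 scale, with adjusted *P* values of 0.188, 0.272 and 0.359 (edgeR).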

How the results depend on the processing

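No gene of the 8 passed the adjusted threshold under any of 18 alternatives, and 133 of 144 estimates kept their direction. The count of genes called between treatments was 0 in the main analysis, 2 with DESeq2, and 0 to 1 with 1 library left out, the 1 being *Gm15920* without 394_1. With the prefix 394 libraries alone the log2 fold change turned to -0.018 for *C1qa*, 0.022 for *C1qc* and -0.33 for *C4b*, and with the prefix 400 libraries alone to -0.016 for *C5ar1*; the cause was not tested. With 1 library left out it ran from -0.0075 to 0.089 for *C1qa*, -0.012 to 0.069 for *C1qb*, -0.036 to 0.032 for *C1qc* and -0.36 to 0.14 for *Cfp*, crossing 0, and kept its sign for the other 4 genes. Pairs of genes called by Pearson's *r* went from 0 to between 0 and 1, the 1 being *C1qa* with *C1qb* without 388_4. The prefix comparison called 2 genes with edgeR, *Myc* and *Fkbp5*, neither in a complement list, and 3 with limma-voom. No paired analysis was possible because the numbers in the titles only count libraries within a prefix, and no label pairs a PBS with a GA library. *Serping1* was at 0 counts. For *Cfp* no difference between treatments was detected, and its interval ran from -0.86 to 0.56.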
